A study of Mus musculus with 22 samples.

Results

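The lost distal G-quadruplex (G4) sites are regions at which the G4 antibody gave a peak in both scramble KD libraries and in neither TERRA KD library, away from gene starts. They were chosen by their G4 peaks alone: a peak of G4 scramble KD replicate 1 that lay more than 1 kb from the transcription start site (TSS) of every RefSeq curated gene, overlapped a peak of G4 scramble KD replicate 2 by at least 1 bp, and overlapped no peak of either TERRA KD G4 list. The rule held for 8448 of 129170 distal peaks (6.54%) and of 140119 peaks in that list in all. The reverse rule, distal peaks of TERRA KD replicate 1 shared with TERRA KD replicate 2 and in no scramble KD list, held for 3647 of 160622 (2.27%). Since the G4 lists chose the sites, their number and their G4 values are a description and no test was made of them.

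The samples were mouse embryonic stem (ES) cells from a cross of CAST/Ei x 129/Sv/Jae mice, grown in ES medium with serum and LIF. The methods of the study give the line as female. The cells were nucleofected, after removal of feeder cells, with a locked nucleic acid (LNA) gapmer that had a scramble sequence (scramble KD) or was antisense to TERRA (TERRA KD), and were collected after 12 h. Each condition had 2 libraries of G4 ChIP-seq, ATRX ChIP-seq, H3K9me3 ChIP-seq and ATAC-seq, and 1 line and 1 gapmer per condition were used. ATAC peaks lay within 1 kb of the TSS of 9 or 10 of 10 ES cell markers, with Pou5f1 and Sox2 among them in all 4 libraries, and of 4 or 5 of 10 feeder fibroblast markers, with Col1a1 and Thy1 in all 4. The part of feeder cells in the results was not tested. Tags after filtering were 2961038 and 24588605 in the scramble KD G4 libraries and 5759282 and 13127555 in the TERRA KD G4 libraries. The 2 G4 libraries of a condition shared 1 input, so a difference between the scramble KD input (23359214 tags) and the TERRA KD input (19824848 tags) enters both replicates and cannot be told apart from the knockdown. In these bulk samples, fewer cells with a structure and less antibody signal per cell cannot be told apart either.

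A G4 is a stacked fold of guanine-rich DNA, in which guanines from several runs of G pair in planes. TERRA is the UUAGGG-repeat RNA transcribed from chromosome ends, and it also associates with sites inside chromosomes. ATRX is a chromatin remodeler that, with DAXX, deposits histone H3.3 at telomeres and repeats and binds G-rich tandem repeats. H3K9me3 is a histone mark of heterochromatin, found in ES cells over many retrotransposons, and ATAC-seq reports chromatin open to a transposase, such as active enhancers.

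The reference sequence (RefSeq genome, GRCm38) of 8 lost sites is shown, because their letters show some kinds of G-rich DNA under lost peaks and they are referred to in the results. Each stretch is printed 5′ to 3′ on the strand with the G runs. Capitals mark the longest match to a G4 motif, which is 4 or more runs of at least 3 G with loops of 1 to 7 bases that may themselves be G. All 8 hold such a motif, against 47.3% of all lost sites, so they do not stand for the lost sites without one.
The first is an intergenic site whose nearest TSS, 45209 bp away, is that of Zfp42, a pluripotency marker, chr8:43261532-43261661 (plus strand). It was 1 of the 10 lost sites with the highest G4 score.
near Zfp42: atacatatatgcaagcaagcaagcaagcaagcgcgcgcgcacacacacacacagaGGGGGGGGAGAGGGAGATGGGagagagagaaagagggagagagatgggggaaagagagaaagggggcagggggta
The following 2 are introns at which ATRX peaks were listed in both TERRA KD libraries only, chr8:120516526-120516655 (minus strand) and chr7:18949791-18949920 (minus strand).
Gse1 intron: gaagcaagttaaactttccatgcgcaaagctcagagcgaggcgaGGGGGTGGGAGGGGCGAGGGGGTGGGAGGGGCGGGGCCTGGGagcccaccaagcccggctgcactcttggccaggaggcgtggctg
Nova2 intron: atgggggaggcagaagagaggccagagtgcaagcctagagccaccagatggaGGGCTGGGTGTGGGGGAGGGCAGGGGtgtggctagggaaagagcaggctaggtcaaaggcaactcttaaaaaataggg
Another 4 belong to genes of the lists described further on (Tfcp2l1, Lin28a, Hes5 and Igfbp4), chr1:118660248-118660377 (minus strand), chr4:134011852-134011981 (minus strand), chr4:154958556-154958685 (plus strand) and chr11:99045439-99045568 (minus strand).
Tfcp2l1 intron: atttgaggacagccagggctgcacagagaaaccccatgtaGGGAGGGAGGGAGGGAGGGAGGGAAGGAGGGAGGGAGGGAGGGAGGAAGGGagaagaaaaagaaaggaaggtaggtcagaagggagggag
Lin28a intron: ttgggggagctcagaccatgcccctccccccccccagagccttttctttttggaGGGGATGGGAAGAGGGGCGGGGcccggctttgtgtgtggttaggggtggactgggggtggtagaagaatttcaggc
Hes5 upstream: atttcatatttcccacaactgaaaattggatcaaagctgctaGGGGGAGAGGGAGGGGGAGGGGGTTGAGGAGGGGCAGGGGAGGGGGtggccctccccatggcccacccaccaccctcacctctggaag
Igfbp4 intron: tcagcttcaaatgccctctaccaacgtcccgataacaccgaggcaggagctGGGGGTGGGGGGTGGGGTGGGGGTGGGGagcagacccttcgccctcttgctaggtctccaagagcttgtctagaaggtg
The last is the intronic site with the highest score among those with a GGGA repeat, in Dennd1b, chr1:139145760-139145889 (plus strand).
Dennd1b intron: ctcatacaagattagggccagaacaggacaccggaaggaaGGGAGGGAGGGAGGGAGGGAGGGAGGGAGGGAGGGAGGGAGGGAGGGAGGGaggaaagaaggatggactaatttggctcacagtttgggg

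The lost sites were weaker peaks than the constant ones. The median lost site spanned 572 bp and held 5 tags in scramble KD replicate 1, with a −log10 p of 3.26 and a fold enrichment over input of 10.8, where the list's own cutoff was a −log10 p of 2. Of the 8448 sites, 5524 (65.4%) held at most 5 tags. For comparison, 44122 distal peaks overlapped a peak in each of the other 3 G4 lists. Those constant sites had a median of 7 tags and a −log10 p of 5.52, and 28.6% of them held at most 5 tags. In scramble KD replicate 2, a library with more tags, the strongest peak under a lost site had a median of 27 tags and a −log10 p of 4.08, against 45 tags and 9.70 under a constant site. Those replicate 2 peaks had a median length of 854 bp under lost and 1069 bp under constant sites. Over all distal peaks the medians in scramble KD replicate 1 were 6 tags, a −log10 p of 3.92 and the same fold enrichment of 10.8. The lost sites had a median rank of 63.5% from the top of the first scramble KD list, against 47.0% for all distal peaks, and of 55.0%, near the middle, in the second.

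The share of distal peaks that was lost fell as the score rose. It was 8.93% of the peaks with a −log10 p of 2 to 2.5, 6.73% at 4 to 5, 3.31% at 6 to 8 and 0.669% over 15. When the list was divided by score into 4 bins of equal size, 34.5% of the lost sites were in the lowest bin and 9.88% in the highest, whereas 11.3% and 44.3% of the constant sites were. The lowest score of a lost site was 2.002, and 137 lost sites had a score under 2.1.

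**Figure D1:**
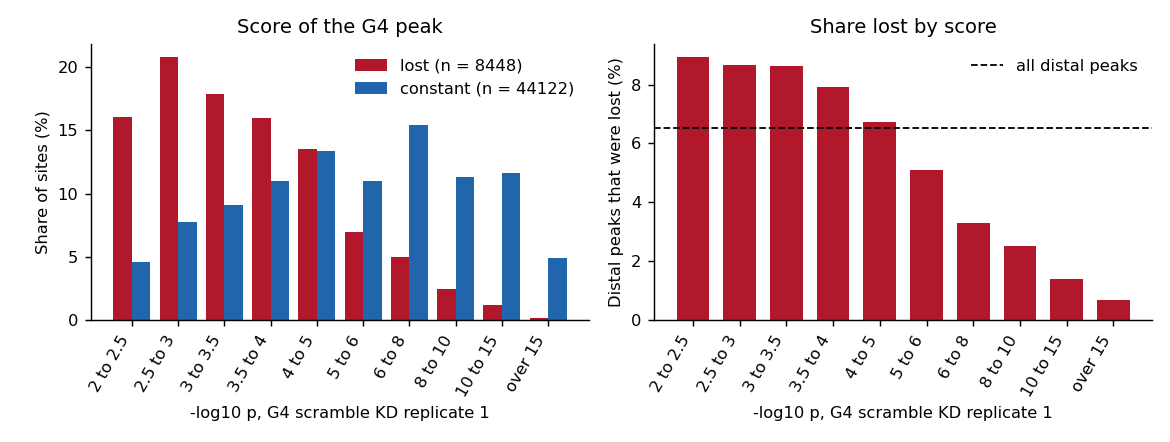
Left, share of the 8448 lost and 44122 constant distal G4 sites (y axis, %) in each range of −log10 p of the G4 peak in scramble KD replicate 1 (x axis); right, share of all distal peaks in each range that was lost (%), with the share over all distal peaks (6.54%) as a dashed line. Lost sites crowd toward the cutoff, and the lost share falls from 8.93% in the lowest range to 0.669% in the highest.

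Many lost sites were close to G4 peaks that TERRA KD did have. The gap to the nearer TERRA KD peak had a median of 1871.5 bp, and 1601 sites (19%) had one within 500 bp. A further look at the edge of the rule gave 4 lost sites that were 1 bp from a TERRA KD peak, and 4 distal peaks that were kept by an overlap of 1 bp. At the other end, 1928 sites (22.8%) had no TERRA KD G4 peak within 5 kb. At the distance limit, the lost site nearest to a TSS was 1003 bp away, and the farthest peak left out for distance was 989 bp away. Among the 10744 peaks within 1 kb of a TSS, 1253 (11.7%) met the rest of the rule.

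The direction of the G4 change depended on how long the lists were. The scramble KD replicate 2 list held 389434 peaks, against 225024 in TERRA KD replicate 2, while the TERRA KD replicate 1 list was the longer of its pair, with 173699 peaks against 140119. When equal numbers of top-ranked peaks were taken in both conditions, in a comparison added after the data were seen for the reverse rule, 6165 sites were lost and 8275 were found in TERRA KD only. The larger number of lost than of TERRA KD-only sites thus held for the lists as deposited and turned with lists of equal length. Either replicate alone gave far larger numbers, 53294 with replicate 1 and 194471 with replicate 2.

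Lost sites were spread over all 21 chromosomes, most densely on chromosomes 8 and 6. There were 691 on chromosome 8 (5.34 per Mb) and 779 on chromosome 6 (5.20 per Mb), against a median over chromosomes of 2.99 per Mb. Distal G4 peaks as a whole were also dense there, at 67.4 per Mb on chromosome 8 and 65.0 on chromosome 6 against a median of 47.4. The lost share of the distal peaks was 7.92% and 8%, the highest among the chromosomes, and the share of TERRA KD distal peaks that were in TERRA KD only was the lowest there, 1.25% and 1.58%. On X, 4.45% of distal peaks were lost (273 sites, 1.60 per Mb), and 19.6% were constant. The Y chromosome held 9 lost sites of 214 distal peaks, although the line is given as female.

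**Figure D2:**
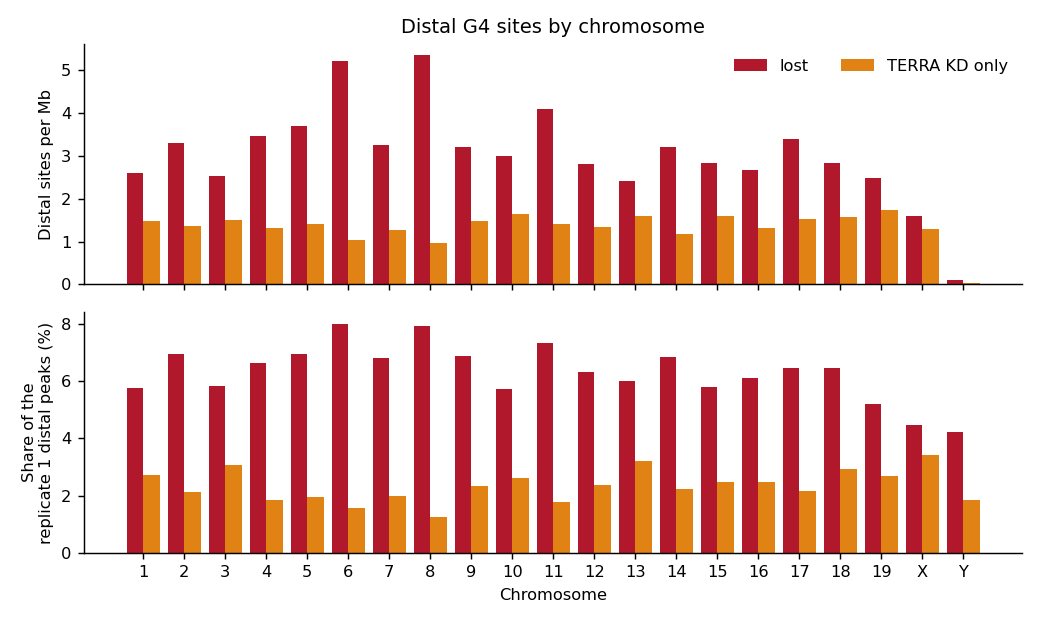
Top, lost sites and sites found in TERRA KD only per Mb of each chromosome (x axis); bottom, the same sites as a share (%) of the distal G4 peaks of scramble KD replicate 1 and of TERRA KD replicate 1. Chromosomes 6 and 8 have the highest lost density (5.20 and 5.34 per Mb) and the lowest TERRA KD-only share (1.58% and 1.25%).

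Within chromosomes, 965 lost sites (11.4%) had another within 10 kb, and the median distance between neighbours was 80171.5 bp. The fullest 1 Mb stretch, which starts at position 117000001 of chromosome 8, held 24 lost sites of 135 distal peaks. It includes Cmip and Plcg2. The next, from position 113000001 of chromosome 6, held 22 of 112 and includes Atp2b2, Vhl and Setd5. A stretch with the Hoxb cluster, from position 96000001 of chromosome 11, held 16 of 74.

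Lost sites were mostly intergenic or intronic. By the annotation at the summit, 4756 (56.3%) were intergenic, 3411 (40.4%) were in introns, 177 (2.1%) in coding exons and 90 (1.07%) in untranslated regions. Of the constant sites 47.5% were intergenic and 7.94% in coding exons. All distal peaks were 57.4% intergenic and 3.91% coding. The median distance to a TSS was 33567.5 bp at lost sites, 31730 bp at constant sites and 43383 bp over all distal peaks. These are shares of regions, with no replicate error.

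Of the lost sites, 3999 (47.3%) held a G4 motif. The motif was searched on both strands, and the share was 36.2% at constant sites, 35.4% over all distal peaks and 50.2% at the sites found in TERRA KD only. In windows of 500 bp around the summit, which have 1 length, the shares were 44.9% at lost, 32.2% at constant, 48.8% at TERRA KD-only sites and 8.24% of 5294579 windows tiling the genome. A high motif share was thus found at sites of either direction of change. In the lowest of the 4 score bins the share was 38.2% at lost and 39.4% at constant sites. In the highest bin it was 53.8% and 31.1%, so the difference was seen in the stronger peaks.

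Of the simple repeats, GGGA was more common and TG less common at lost than at constant sites. A GGGA repeat (3 copies of GGGA in a row, either strand), as in the Dennd1b and Tfcp2l1 introns shown, was in 11.4% of lost, 5.03% of constant and 0.757% of genome windows, beside 7.18% of all distal and 8.23% of TERRA KD-only windows. The motif and the repeat overlap in their letters: 972 lost peaks held both, and 26 held the GGGA repeat alone. A TG repeat (10 copies in a row, either strand) was in 16% of lost, 23.5% of constant and 4.75% of genome windows, beside 20.3% of all distal and 14.4% of TERRA KD-only windows. Neither repeat nor motif was found in 3302 lost peaks (39.1%). Peak GC content averaged 48.8% ± 6.11 (SD over 8448 sites) at lost sites and 51.4% ± 6.66 at 44122 constant sites, against 47.8% over all distal peaks and 41.7% in genome windows. Repeat-masked bases made up 52.0% of the average lost site and 38.5% of the average constant site. The lost sites were close to distal peaks as a whole in this, which averaged 53.7%.

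**Figure D3:**
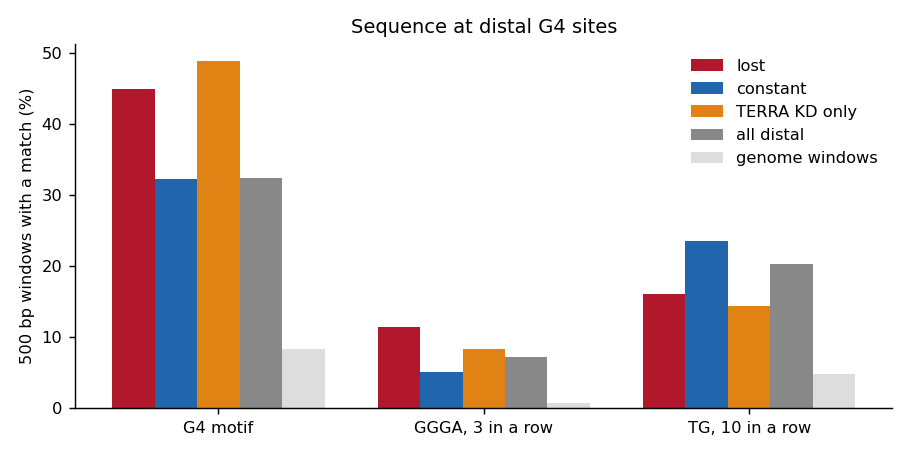
Share (%) of 500 bp windows around the summit that held a G4 motif, 3 GGGA in a row or 10 TG in a row, at lost sites, constant sites, sites in TERRA KD only, all distal G4 peaks, and windows tiling the genome. The motif is more common at lost (44.9%) and TERRA KD-only (48.8%) than at constant sites (32.2%).

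Telomere-like repeats were rare among the lost sites, as they were among the constant sites. Peaks with at least 4 copies of TTAGGG in a row were 120 of all distal peaks (0.0929%), 4 of the constant (0.00907%) and 1 of the lost sites (0.0118%). They were 0.0548% of the TERRA KD-only sites, and 0.00514% of the 500 bp genome windows held such a run. The lost one lies in an intron of Wnt7b. Wnt7b encodes a secreted Wnt ligand. Its G4 peak had 4 tags in scramble KD replicate 1 (−log10 p 3.004) and 46 tags in replicate 2 (7.05), and TERRA KD G4 peaks lay 1082 and 804 bp away. ATRX peaks were listed there in scramble KD replicate 1 (−log10 p 2.96) and in TERRA KD replicates 1 (12.7) and 2 (2.51), and H3K9me3 peaks in both scramble KD libraries (2.21 and 3.80) and in TERRA KD replicate 2 (9.52).

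Among the 10 lost sites with the highest G4 scores, 9 shared sequence with another of the 10. The top 3 lay in a row on chromosome 6 (47674585 to 47687013), near Rn4.5s, a gene for a small rodent RNA. Their scores were 88.7, 60.5 and 55.1 with 301, 178 and 276 tags. Between 50.8% and 98.4% of the 20-base words of one were found in another of the 3, so they share most of their sequence. ATAC peaks covered them in all 4 libraries, with a −log10 p of 39.8 to 73.6. Another 6 of the top 10, on chromosomes 1, 4, 6, 10, 13 and Y, were repeat-masked over their whole length. Each shared 40.9% to 82.0% of its words with at least 1 of the others, and their GC content was 37.7% to 38.8%. One of them lies in an intron of Grin3a, which encodes an NMDA receptor subunit, with 24 tags and a score of 22.3 in scramble KD replicate 1 and 43 tags and 12.8 in replicate 2.

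That shared repeat was looked for in the other peaks after these values were seen. Words of the 6 sites made up at least 50% of 69 lost sites (0.817%), the 6 included, of 1 constant site (0.00227%) and of 3405 of all distal peaks (2.64%). The lost ones had a median score of 7.43. H3K9me3 peaks were listed at 23.2% and 34.8% of the 69 in the scramble KD libraries and at 40.6% in each TERRA KD library. The part of multi-copy sequence in the loss of these peaks was not tested. The remaining top site, near Zfp42 and shown with its motif, had 17 tags (18.01) and 27 tags (3.01) in the scramble KD libraries, and no ATAC, ATRX or H3K9me3 peak in any library.

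The share of sites with open chromatin was higher at lost than at constant sites in 4 of 4 ATAC libraries, and its values in scramble KD and TERRA KD overlapped. ATAC peaks were listed at 9.73% and 12.8% of lost sites in the scramble KD libraries and at 11.7% and 13.5% in the TERRA KD libraries. Over all distal peaks the shares were 7.2% and 9.26% in the scramble KD libraries and 8.99% and 10.2% in the TERRA KD ones. At lost sites the second scramble KD library lay above the first TERRA KD library. The mean difference, TERRA KD minus scramble KD, was 1.33 percentage points (two-sided exact permutation test over the 4 libraries, p = 0.667, adjusted over 3 assays 0.667). With 2 libraries against 2 the smallest p that test allows is 0.33.

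At constant sites the ATAC shares were 6.56% and 9.23% in the scramble KD libraries and 9.25% and 10.6% in the TERRA KD ones. Lost sites were above constant sites in 4 of 4 libraries, by 2.43 to 3.53 points (mean 2.99, two-sided exact sign-flip test, p = 0.13, adjusted 0.188, where 0.13 is the smallest possible). They were also above the sites found in TERRA KD only in 4 of 4 libraries, by 5.34 to 6.95 points (p = 0.13, exact sign-flip, adjusted 0.375). The order did not run with the degree of loss. The 24495 distal peaks kept in exactly 1 TERRA KD list had higher ATAC shares than either set, 17.1% and 20.6% in the scramble KD libraries and 20.2% and 22% in the TERRA KD ones. When those were counted as constant, the mean difference, lost minus constant, was -0.963 points. Peak strength moved with the comparison as well: in the lowest score bin the mean difference was -1.001 points, and in the third bin it was 5.42 points.

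**Figure D4:**
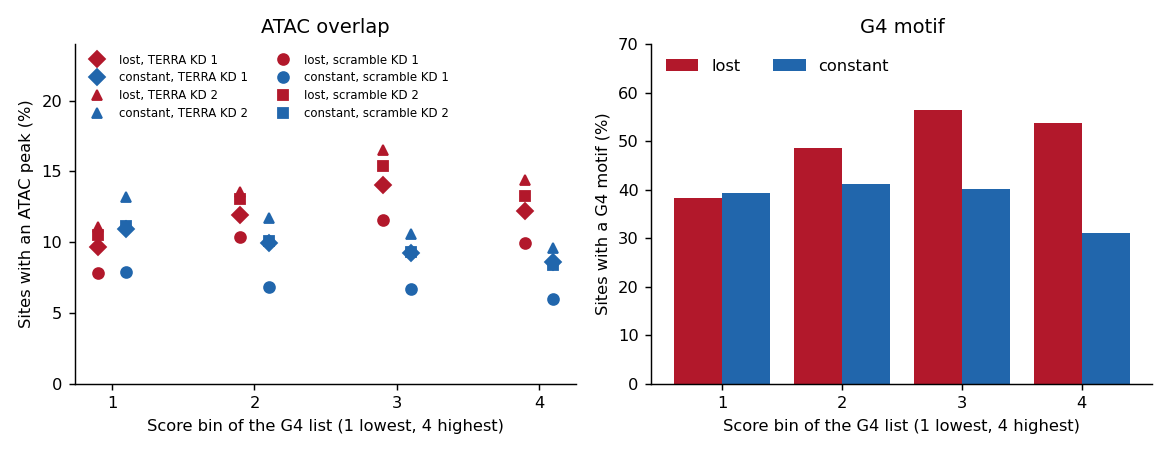
Left, share of lost and constant sites with an ATAC peak (y axis, %) in each of 4 score bins of equal size of the G4 list (x axis), with 1 symbol per ATAC library; right, share with a G4 motif (%) in the same bins. Lost sites exceed constant sites in bins 2 to 4 in every ATAC library, and not in bin 1.

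Few ATAC peaks under lost sites were listed in 1 condition only. Of 8448 sites, 684 (8.1%) had an ATAC peak in all 4 libraries, against 5.74% of all distal peaks. Only 9 (0.107%) had one in both scramble KD libraries and in neither TERRA KD library (0.151% of all distal peaks), and 44 (0.521%) the reverse (0.53%). Both shares were near or below the background of distal peaks. The ATAC peaks under lost sites ranked at a median of 36.4% to 42.5% from the top of their lists, and those under constant sites at 52.6% to 55.6%. Lost sites with ATAC peaks in all 4 libraries were 24917 bp from a TSS at the median, against 35122 bp for those without any, and 38.7% against 48.4% held a G4 motif.

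Beside the sites near Rn4.5s and 3 between genes on chromosome 8, near 6820431F20Rik and Gm21119, the strongest lost G4 sites with ATAC in all 4 libraries included an intron of Fmnl1, a formin that regulates actin. Its G4 peak had 10 tags (13.1) over 353 bp in scramble KD replicate 1. The overlapping replicate 2 peak had 124 tags (17.8) over 3739 bp. ATAC peaks at the site had a −log10 p of 7.06 and 9.46 in the scramble KD libraries and 7.37 and 13.9 in the TERRA KD ones. The 9 sites with ATAC peaks in scramble KD only lay in introns of Specc1, Lims2, Disc1, Gpr4 and 1700025G04Rik, in an untranslated region of Eif4h, and between genes near Ccdc42, Gpr84 and Spata31d1d. Their ATAC scores were 2.24 to 9.52, and none had an ATRX or H3K9me3 peak in any library. Of all lost sites, 94.2% had no ATRX peak and 90.2% no H3K9me3 peak. The highest G4 score among them was in Specc1, with 8 tags (6.72) and 20 tags (2.08).

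The share of lost sites with an ATRX peak was larger in both TERRA KD than in both scramble KD libraries, and the same held for distal G4 peaks as a whole. ATRX peaks were listed at 0.438% and 0.781% of lost sites in the scramble KD libraries and at 2.98% and 2.15% in the TERRA KD ones, so the groups did not overlap. Over all distal peaks the shares were 0.491% and 0.975% in the scramble KD libraries and 3.41% and 2.48% in the TERRA KD ones. The mean difference at lost sites was 1.96 points (exact permutation test, p = 0.33, the smallest possible, adjusted 0.5), and over all distal peaks it was 2.21 points. The ATRX lists themselves were longer in TERRA KD, with 41384 and 21718 peaks against 7321 and 13652. When equal numbers of top-ranked ATRX peaks were taken in both conditions, the difference at lost sites was 0.397 points (p = 0.667, exact permutation), and with ATRX peaks of a −log10 p of at least 5 it was 0.213 points.

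At constant sites ATRX was listed at 0.505% and 0.621% in the scramble KD libraries and 4.49% and 3.54% in the TERRA KD ones. Lost sites were thus 1.51 and 1.39 points lower in the TERRA KD libraries (differences of -1.505 and -1.39) and within 0.16 points in the scramble KD libraries. The mean difference over the 4 libraries was -0.70 points (exact sign-flip test, p = 0.375, adjusted 0.375), lower in 3 of 4. An ATRX peak in both TERRA KD libraries and no scramble KD library was found at 19 lost sites (0.225%), against 0.334% of all distal peaks and 0.612% of constant sites. The reverse was found at 2 lost sites (0.0237%, against 0.00774% of all distal peaks), and ATRX in all 4 libraries at 0 lost sites and 0.0751% of all distal peaks. The count of lost sites that took up an ATRX peak was thus below the background share.

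**Figure D5:**
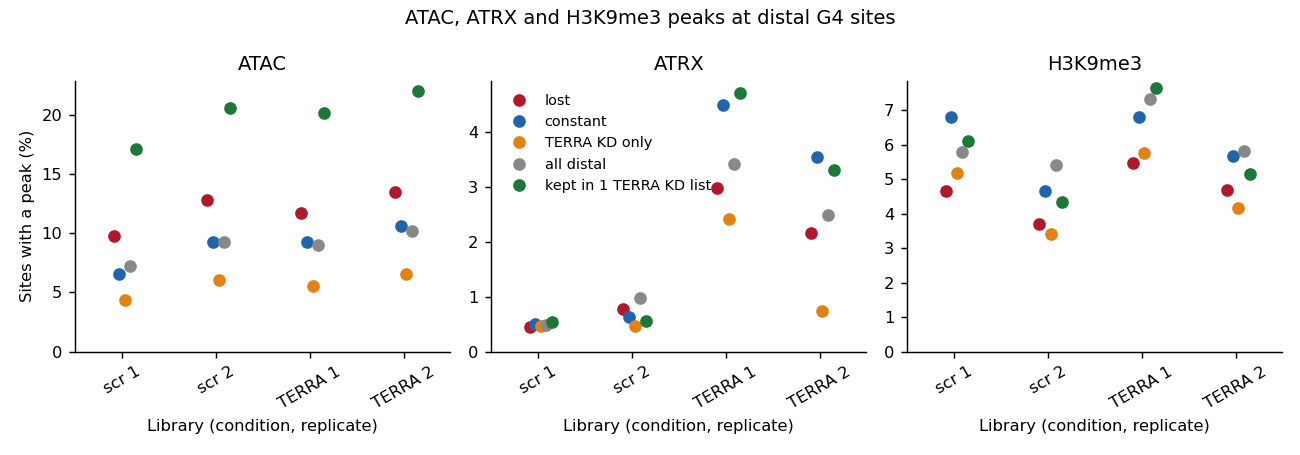
Share (%) of distal G4 sites with an ATAC, ATRX or H3K9me3 peak (y axes) in each of the 4 libraries of that assay (x axes), for lost sites, constant sites, sites in TERRA KD only, all distal peaks, and sites kept in 1 TERRA KD list. Lost sites lie above constant sites for ATAC, below them in TERRA KD for ATRX (2.98% and 2.15% against 4.49% and 3.54%), and below them for H3K9me3 in all 4 libraries.

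Of the 19 sites, 7 had ATAC peaks in all 4 libraries and 9 had none, against 8.1% and 83.6% of all lost sites. H3K9me3 was in both TERRA KD lists at 9, and in no list at 7, where 90.2% of all lost sites had none. ATRX and H3K9me3 libraries of the same condition and number had 1 input, so these assays do not have separate controls. Among the 10 with the highest G4 score, the introns of Gse1 and Nova2, shown above, and of Rasgef1a held a G4 motif and no H3K9me3 peak. Gse1 encodes a component of a histone deacetylase complex. Its G4 peak had 8 tags (5.88) over 575 bp in scramble KD replicate 1. The overlapping replicate 2 peak had 339 tags (35.0) over 7332 bp, so those tags are not of the site alone. The ATRX peaks at the site in TERRA KD had a −log10 p of 2.39 and 2.01, at the cutoff. Nova2 encodes a neuronal splicing factor. Its site had 8 tags (5.70) and 43 tags (7.70), ATRX peaks of 3.30 and 2.04 in TERRA KD, and ATAC peaks of 5.76 and 18.8 in the scramble KD libraries and 17.5 and 27.8 in the TERRA KD ones. Rasgef1a encodes an exchange factor for small GTPases, and its intron had 6 tags (5.49) over 395 bp in scramble KD replicate 1. The overlapping replicate 2 peak had 111 tags (15.2) over 3068 bp, and the ATRX peaks in TERRA KD were 3.19 and 2.08.

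Other sites with ATRX in TERRA KD only carried H3K9me3. An intron of Zfp978, a zinc finger gene, had ATRX peaks of 7.28 and 2.58 and H3K9me3 peaks of 106.3 and 15.6 in scramble KD and 66.2 in TERRA KD replicate 2. A site between genes, 721852 bp from the nearest TSS (that of Epha6), had ATRX peaks of 8.80 and 3.61 and H3K9me3 in all 4 libraries, and so did an intron of Gm7967 (ATRX 9.04 and 2.299) and a site 53358 bp from the TSS of Kcnf1 (6.37 and 4.49). The count of 19 became 1 when ATRX peaks needed a −log10 p of at least 5, and 10 when 50% of the G4 peak had to be covered.

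The share of sites with H3K9me3 was lower at lost than at constant sites in 4 of 4 libraries. The mark was listed at 4.65% and 3.71% of lost sites in the scramble KD libraries and 5.46% and 4.68% in the TERRA KD ones. Over all distal peaks the shares were 5.78% and 5.4% in the scramble KD libraries and 7.32% and 5.81% in the TERRA KD ones. At lost sites both TERRA KD values were above both scramble KD values, by a narrow margin, and the mean difference was 0.89 points (exact permutation test, p = 0.33, the smallest possible, adjusted 0.5). Over all distal peaks it was 0.98 points. At constant sites the shares were 6.80% and 4.65% in the scramble KD libraries and 6.80% and 5.66% in the TERRA KD ones. Lost sites were lower in 4 of 4 libraries, by a mean difference of -1.35 points (exact sign-flip test, p = 0.13, adjusted 0.188). Among the 835 lost sites in the highest of 4 score bins they were lower in 1 library (-2.04 points) and higher in the other 3 (0.474, 0.241 and 0.806 points), with a mean of -0.13 (p = 1.0, exact sign-flip).

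H3K9me3 peaks were in all 4 libraries at 87 lost sites (1.03%, against 1.42% of all distal peaks), in TERRA KD only at 21 (0.249%, against 0.46%) and in scramble KD only at 8 (0.0947%, against 0.19%). With 50% of the G4 peak covered these counts were 10 and 12, so their order turned. The 87 sites were 81.6% intergenic, a median of 98.5% of their bases was repeat-masked, and 13.8% held a G4 motif. Just 3 of them had ATAC peaks in all 4 libraries. Sites of this kind with the highest G4 scores included 1 between genes, 714143 bp from the nearest TSS (that of Slitrk5), with 13 tags (12.3) and 16 tags (2.99). Another was in an intron of Cdh13, the gene of T-cadherin, with 10 tags (6.95) and 17 tags (2.55), and with H3K9me3 peaks of 18.4 and 3.17 in the scramble KD libraries and 12.0 and 6.69 in the TERRA KD ones.

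Most lost sites, like most constant sites, had none of the 3 other features. No ATAC, ATRX or H3K9me3 peak was listed in any of the 12 libraries at 6173 lost sites (73.1%), and at 73.9% of constant sites.

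Gene bodies with several lost sites were long genes. A lost site lay in the body of 2825 of 26182 curated genes, 2170 of them with 1 site and 29 with 5 or more. The median length was 72.3 kb for genes with a lost site and 405.6 kb for those with 5 or more, against 13.5 kb for all genes. Cdh13 and Cntnap2, a neurexin-like adhesion protein, had the most, 8 each, beside 44 and 23 constant sites. These were 8 of 90 and 8 of 113 distal peaks in the genes, where 6.54% of all distal peaks were lost. Cmip had 7 of 35 distal peaks lost in 204.5 kb, the highest density of lost sites among the 10 genes with the most (34.2 per Mb). Of these 7, 6 held a G4 motif. Atp2b2, a plasma membrane calcium pump, Foxp1, a forkhead factor, and Tenm4, a teneurin, also had 7, of 49, 40 and 36 distal peaks. At Atp2b2 1 of 7 held a motif and none had an ATAC, ATRX or H3K9me3 peak.

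Celf4, Zfp423, Ksr2 and Prkce had 6 each, of 26, 39, 30 and 43 distal peaks. At Celf4, which encodes an RNA-binding splicing factor, 5 of 6 lost sites had an ATAC peak in some library and 3 in all 4. At Zfp423, a zinc finger factor of neural and fat precursors, 3 of 6 had one in all 4. All 10 genes also held constant sites, 10 to 44 each, so none lost its distal G4 peaks as a whole.

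Lists of genes of pluripotency, signalling and G4 biology were read for a lost site in the body or within 10 kb upstream, which 3717 of all genes had (14.2%). Gene length was not held equal between lists. The share of all genes with a constant site is not given, so the counts of genes with a constant site stand without a background. Of 30 pluripotency genes, with a median length of 6.7 kb, 4 had one (13.3%): Esrrb, Lin28a, Nr5a2 and Tfcp2l1. None of the 4 had a constant site, but only 3 of the 30 genes did. Esrrb, an orphan nuclear receptor of naive ES cells, had 2, at 21649 and 72573 bp inside the gene, both with a G4 motif. The second had ATAC peaks in all 4 libraries, with 5 tags (4.91) and 17 tags (2.27) in the scramble KD G4 libraries. Lin28a, an RNA-binding protein that blocks let-7 processing, had its site 6838 bp inside the gene, with ATAC in all 4 libraries, 6 tags (4.31) and 49 tags (7.44). Nr5a2 had ATAC in all 4 libraries and no motif, with 4 tags (2.80) and 14 tags (2.097). The Tfcp2l1 intron, shown above with its GGGA repeat, had 8 tags (6.57) and 13 tags (2.11) and no peak of another kind.

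In the signalling lists the shares were 5 of 31 Wnt genes (16.1%), 9 of 25 Notch genes (36%), 11 of 32 genes of TGF-β and BMP signalling (34.4%) and 8 of 28 of FGF and MAPK signalling (28.6%). The median gene lengths of these lists were 38.1, 24.2, 61.4 and 28.2 kb, against 13.5 kb for all genes. A constant site was held by 22, 16, 19 and 16 of their genes, more than held a lost one, but constant sites were also the more numerous in all (44122 against 8448). Beside Wnt7b, the Wnt genes were the receptor Fzd8, the ubiquitin ligase Rnf43 and the transcription factors Tcf7l1 and Tcf7l2. Among Notch genes, the ligand Dll3 had a lost site in a coding exon with ATAC in all 4 libraries, 6 tags (4.85) and 116 tags (23.7). The target Hes5 had one 2222 bp upstream, shown above with its G runs, with 10 tags (6.63) and 53 tags (6.20) and no other peak. The others included the receptors Notch1 and Notch4, the protease Adam10, the coactivators Maml2 and Maml3, and the inhibitor Numb.

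Smad7, an inhibitor of TGF-β signalling, and Fgfr1, Map2k2 and Spred2 of the FGF list had 2 lost sites each. Tgfb1, Tgfb3, Bmp7 and Inhba, which encode ligands, Acvr1b, Acvr2a, Bmpr2 and Tgfbr3, which encode receptors, and Smad3 and Id3 had 1 each. Id3, a helix-loop-helix inhibitor and BMP target, had its site 8412 bp upstream with ATAC in all 4 libraries, 6 tags (3.83) and 129 tags (23.96). The rest of the FGF list included Fgf5, Fgfr2, Sos2 and Spry1.

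Of 34 glutamate and GABA receptor genes, 13 had a lost site (38.2%), but their median length was 231.3 kb and 29 had a constant site. Grik4, a kainate receptor subunit, had 4, and Grm7 and Grm8 had 3 each. The other lists were close to the share of all genes or small. They gave 4 of 23 for ATRX, DAXX and H3K9 methylation (Daxx, Dnmt1, Mphosph8 and Uhrf1), 3 of 20 for G4 helicases and binding proteins (Blm, Cnbp and Wrn), 0 of 17 for shelterin and telomerase, and 1 of 10 for feeder fibroblast markers (Prrx1). A last list held genes that the study shows as examples on these same samples, so it is no independent evidence. Of its 8 genes, Igfbp4 and Ppard had a lost distal site (25%). The Igfbp4 intron, shown above, had 8 tags (6.19) and 68 tags (10.8) and no ATAC, ATRX or H3K9me3 peak. Ppard had 7 tags (4.40) and 488 tags (93.5), with ATAC peaks in 3 of 4 libraries.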

How the data were processed

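Peak lists of 16 libraries were used (G4, ATRX and H3K9me3 ChIP-seq and ATAC-seq, 2 libraries per condition, grouped by their titles). Per the study's methods and the submitters' processing notes, the authors trimmed reads with Trim Galore 0.5.0, aligned them to mm10 with Bowtie2 2.3.4.1, removed duplicates with SAMtools 1.9 and called peaks per library with a p cutoff of 0.01. Per the file headers, MACS 1.4.2 was run for G4 and 1.4.3 for ATRX and H3K9me3, against an input, and MACS 2.2.7.1 for ATAC, without one. Reads of the hybrid line were aligned to 1 reference genome, and the default setting of Bowtie2 was used, which reports 1 position for a read that aligns to several. The deposited ChIP lists give tag counts per peak, a score that is 10 times the −log10 p (divided back here) and a fold enrichment ratio, and the deposited ATAC lists give pileup signal, −log10 p and fold enrichment. The lists hold no coverage outside peaks, so a site without a peak has no value.

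Peaks on the 21 assembled chromosomes were used (6 peaks on scaffolds met the rule and were left out). The TSS was the most upstream start of the curated transcripts of each of 26182 RefSeq genes, and distances ran from the peak's edge, except for sites of the gene lists, where they ran from the summit. Sites between genes are named by the nearest TSS at any distance. Overlap meant at least 1 bp. The number of lost sites was the same with bedtools 2.31.1, and interval functions were tested on simulated data. Shares per library were compared between conditions with the exact permutation test, and between lost and constant sites with the exact sign-flip test, with libraries as the unit and Benjamini-Hochberg adjustment over 3 assays (Python 3.11.15, scipy 1.17.1). Same-condition libraries are not stated in the labels to be separate cultures, so p-values measure only the spread between these libraries. Genes and sites were named by rank: the 10 genes with the most lost sites, up to 10 sites by G4 score in each overlap class, all sites with 4 or more TTAGGG in a row, and genes of the lists. The members and lists were chosen with earlier results of these data known. The score in parentheses after a tag count in the report is the −log10 p of that G4 peak. A tag count given for scramble KD replicate 2 is that of the strongest peak there that overlaps the site. Such a peak can reach far beyond the site, so its tags are not of the site alone. Some genes and sequences that met these rules are not reported here.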

Additional observations from a re-analysis of the deposited data

How the results depend on the processing

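The number of lost sites stayed within 1.5 times of 8448 with all curated transcript starts (8349), a 5 kb distance, X and autosomes only, a 500 bp margin to TERRA KD peaks, 50% cover, sites taken from the replicate 2 list (7680) and equal list lengths. It was 1331 with scores of at least 5, and between 53294 and 194471 with 1 replicate left out. Equal list lengths raised the TERRA KD-only count from 3647 to 8275. The ATAC difference between lost and constant sites reversed to -0.963 points with constant sites counted from either TERRA KD list and to -1.001 in the lowest of 4 score bins. The cause of these changes was not tested. The other mean differences in shares kept their direction in each alternative run, though H3K9me3 at lost against constant sites was higher in 3 of 4 libraries in the highest score bin. With 1 replicate left out they kept it too (ATAC 0.71 to 1.95, ATRX 1.37 to 2.54 and H3K9me3 0.805 to 0.971 points, TERRA KD minus scramble KD). No test here can go below 0.05, so a kept direction is the most that could be seen.

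In alternatives added after the data were seen, sites with ATRX in TERRA KD only fell from 19 to 10 with 50% cover and to 1 with scores of at least 5, and those in scramble KD only from 2 to 1 and 0. H3K9me3 in TERRA KD only fell from 21 to 10 and 11, and in scramble KD only it went from 8 to 12 and 4, so the order of both turned with 50% cover (10 against 12). The G4 motif share was 55.1% with loops of up to 12 bases and 44.9% in 500 bp windows. Genes numbered 6000 by nearest TSS instead of 2825 by gene body.

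With the replicate number as a block, the differences were unchanged, 1.33, 1.96 and 0.89 points for ATAC, ATRX and H3K9me3, each with p = 0.5 (exact sign-flip), the smallest that 2 pairs allow. Across 1 Mb stretches, the deviations of same-numbered libraries had an r of 0.489 for G4, 0.361 for H3K9me3 and 0.191 for ATAC. For ATRX it was 0.007, so no shared deviation was seen there. The labels do not say that a number marks a shared culture or day. Depth differed between the G4 libraries, and its part in the loss was not tested. Scramble KD replicate 1, which set the sites, was the shallowest G4 library (2961038 tags), below both TERRA KD libraries (5759282 and 13127555). In it, 65.4% of lost sites rest on at most 5 tags, so many of the peaks that set the sites are weak. The lists hold no coverage outside peaks, so absence from a list is not absence of signal.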

Other observations

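The strength of ATRX and H3K9me3 peaks under the lost sites adds to their counts. ATRX peaks under lost sites had a median −log10 p of 2.38 and 2.41 in the scramble KD libraries and 2.44 and 2.41 in the TERRA KD ones, against medians of 2.29, 2.302, 2.40 and 2.33 over the whole lists, so most lay just past the cutoff of 2. H3K9me3 peaks under lost sites had medians of 5.88 and 2.79 in the scramble KD libraries and 5.42 and 3.16 in the TERRA KD ones.

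The 52105 distal peaks that were not shared between the scramble KD replicates had the lowest ATAC shares, 2.67% and 3.36% in the scramble KD libraries and 3.07% and 3.65% in the TERRA KD ones, and their H3K9me3 shares were 4.95% and 6.8% in the scramble KD libraries and 7.91% and 6.43% in the TERRA KD ones.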
